A study of Mus musculus with 36 samples.

Results

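The lipid genes Fabp5, Scd1, Scd2, Fasn, Acaca, Pparg, Mgst1, Plin2 and Acsl1, which act in the epidermis and the sebaceous gland, were followed through 2 consecutive skin wounds in the progeny of Lrig1+ and Lgr5+ hair follicle (HF) stem cells. They were taken by name as 9 of the 23903 genes listed in at least 1 of the 2 count tables of the series, and the rule uses no measured value, although the list was drawn up with earlier results of these data known. All 9 had a row in both tables, and 9 of 9 passed the filter on low counts in each population. Small pools of sorted tdTomato+ cells were sequenced by a Smart-seq2 protocol without molecular identifiers (mini-bulk RNA-seq), in 36 libraries with 3 libraries for each population and time point. The mice carried Lrig1-EGFP-ires-CreERT2 or Lgr5-EGFP-ires-CreERT2 with Rosa26-fl/STOP/fl-tdTomato, and all of them, the unwounded ones too, had received hydroxytamoxifen once on the tail skin before wounding. The cells so marked and their descendants were called Lrig1 GL and Lgr5 GL cells (GL, genetically labelled). Tail skin was sampled unwounded (0w), at 1 week (1w pw1), 2 weeks (2w pw1), 4 weeks (4w pw1) and 8 weeks (8w pw1) after a first full-thickness wound, and 1 week after a second, overlapping wound made at 8 weeks (1w pw2, which the count tables call week 9). The dissected skin took in the wound bed as well as HFs away from it, so a library mixed cells of both places. The label marks whatever the Cre-carrying cells had given rise to, and not a fixed cell type. The mice of later time points were older, and age and time after wounding cannot be told apart.

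In skin, long-chain fatty acids are made in the cytosol from acetyl-CoA, first by acetyl-CoA carboxylase (Acaca) and then by fatty acid synthase (Fasn), and stearoyl-CoA desaturases (Scd1, Scd2) put a double bond into the products. Acsl1 links free fatty acids to coenzyme A, Fabp5 is the fatty acid-binding protein of keratinocytes that carries them through the cytosol, and Plin2 coats the lipid droplets in which esterified fatty acids are stored. Pparg is a nuclear receptor that fatty acids activate and that sebocytes need in order to mature, while Mgst1 is a membrane-bound glutathione transferase that is abundant in sebaceous glands. Sebocytes fill with lipid and burst to release sebum, and Lrig1+ cells of the junctional zone maintain these glands and the upper HF. Lgr5+ cells sit in the lower HF, below the gland. Mature keratinocytes of the interfollicular epidermis (IFE) use the same enzymes to build the lipids of the skin barrier.

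The 2 desaturases lie on chromosome 19 and share long stretches of coding sequence, which is why their sequences are shown first. In GRCm38 with GENCODE M21, Scd1 spans chr19:44394455-44407879 on the minus strand and Scd2 spans chr19:44293674-44306864 on the plus strand. The stretch below is 237 coding bases, spliced across an exon junction, and holds the longest run that both genes share, of 147 bases. Capitals mark the 2 bases at which the stretches differ.
Scd1: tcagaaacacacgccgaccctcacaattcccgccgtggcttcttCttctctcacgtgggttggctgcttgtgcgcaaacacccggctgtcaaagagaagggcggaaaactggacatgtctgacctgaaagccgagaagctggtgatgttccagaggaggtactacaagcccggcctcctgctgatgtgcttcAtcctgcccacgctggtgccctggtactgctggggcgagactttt
Scd2: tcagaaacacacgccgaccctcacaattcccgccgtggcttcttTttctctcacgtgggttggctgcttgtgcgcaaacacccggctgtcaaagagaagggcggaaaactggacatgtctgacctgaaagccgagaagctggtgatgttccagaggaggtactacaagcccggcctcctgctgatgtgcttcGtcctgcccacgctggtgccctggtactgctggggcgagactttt
Over the whole of the longest coding transcript, 4.66% of the 50-base stretches of Scd1 and 4.01% of those of Scd2 occur in another annotated gene. A read from such a stretch cannot be given to 1 gene, but most of each transcript is its own, so the separate levels of the 2 desaturases were kept.

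Fabp5 (chr3:10012548-10016607, plus strand) has several copies in the genome that share part of its sequence. Of its 938 stretches of 50 bases, 198 (21.1%) occur in 1 or more of 5 other genes (Fabp5l2, Gm13998, Gm14328, Gm6100 and Gm6166). Acaca (chr11:84129672-84401651, plus strand) has the largest shared part of the members and shares 52.6% of its stretches with Gm5182, and Plin2 (chr4:86648386-86670060, minus strand) shares 4.89% with Gm12551. Fasn (chr11:120805846-120824547, minus strand), Pparg (chr6:115360951-115490399, plus strand), Mgst1 (chr6:138140316-138156755, plus strand) and Acsl1 (chr8:46471037-46536051, plus strand) share none.

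The promoters of Pparg, the receptor, and of Plin2, a droplet gene that such receptors are known to drive in other cells, are shown for the motifs they hold. Each is the 250 bases before a RefSeq start site of GRCm38.p6, and capitals mark CCAAT boxes (CCAAT on either strand). The Pparg window is chr6:115421816-115422065 on the plus strand, at 1 of 3 start sites of the gene, and the Plin2 window is chr4:86670060-86670309 on the minus strand.
Pparg: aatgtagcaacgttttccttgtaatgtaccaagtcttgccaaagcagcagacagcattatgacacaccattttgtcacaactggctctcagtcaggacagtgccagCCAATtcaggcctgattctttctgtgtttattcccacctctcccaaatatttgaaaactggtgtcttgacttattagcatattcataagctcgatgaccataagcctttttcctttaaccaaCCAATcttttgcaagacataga
Plin2: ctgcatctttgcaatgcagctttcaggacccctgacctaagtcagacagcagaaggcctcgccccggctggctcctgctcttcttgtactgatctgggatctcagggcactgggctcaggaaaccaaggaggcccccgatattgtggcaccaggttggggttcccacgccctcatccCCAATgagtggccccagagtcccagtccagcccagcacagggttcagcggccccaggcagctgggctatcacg
The Pparg window holds 2 CCAAT boxes and the Plin2 window holds 1, and 33.8% of the 32851 promoter windows of the annotation hold at least 1. RefSeq windows were matched for 6 of the 9 members, with 10 windows in all, and none of the 10 holds the classical PPAR element, 2 copies of AGGTCA with 1 base between them, on either strand. That element is in 0.0335% of all windows. A match or its absence in these windows is a description of the letters only.

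The shallowest Lrig1 GL library had 765252 counts and the deepest 3365666, and for Lgr5 GL libraries these were 1297798 and 6960537 counts. Levels are given as CPM (read counts divided by the TMM-scaled library size), and the limit that a count of 0 allows, 3 counts, corresponds to 1.01 to 3.39 CPM in Lrig1 GL and 0.389 to 2.92 CPM in Lgr5 GL libraries. The 9 members were well above this in all libraries except for Pparg in both populations and for Acsl1 in single Lgr5 GL libraries. Pparg held 4 to 84 counts in the Lgr5 GL libraries, with a median of 2.78 CPM. A single non-coding gene, Gm12415, took 12.04% to 52.1% of the counts of the Lgr5 GL libraries, and leaving it out changed no call on a member. Krt14, which marks basal keratinocytes, had 7281 to 12310 CPM in the 0w Lrig1 GL libraries and 4589 to 5190 CPM in the 0w Lgr5 GL ones. Lgr5 itself had 51.3 to 264 CPM and 321 to 499 CPM, and Lrig1 had 183 to 244 CPM and 38.6 to 119 CPM. Both labels thus held keratinocyte RNA, and neither gene used to drive Cre was absent from the other population. Of the Lrig1 GL libraries, replicate 1 of 0w stood apart for several members and for sebocyte genes, and results that rest on it are given with and without it. In pools of cells, fewer cells of a type and less RNA per cell cannot be told apart.

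Fabp5 was the member that changed in both populations. In Lrig1 GL cells it had 384, 112 and 769.9 CPM in the 3 libraries at 0w, and 5279, 2066 and 2597 CPM at 1w pw1. The 3 libraries of 1w pw1 were all above those of 0w, with 3314 ± 1723 against 422 ± 330.3 CPM (SD, n = 3 each). At 2w pw1 the levels were 1561, 1141 and 1852 CPM, and at 4w pw1 1603, 1566 and 793 CPM. Both time points were still above every 0w library. At 8w pw1 they were 346, 139 and 669 CPM, within the range of 0w. One week after the second wound they were 2261, 5663 and 2174 CPM, again above every library of 0w and of 8w pw1.

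In the test across the time course, Fabp5 changed in Lrig1 GL cells (edgeR quasi-likelihood F-test, adjusted p = 0.0336), where 1.63% of the 14306 genes tested were called and 2 of the 9 members were. Against 0w, the log2 fold change was 2.97 ± 0.66 (SE) at 1w pw1 (7.86-fold, 95% interval 1.59 to 4.35 on the log2 scale), with an adjusted p of 0.0784 that did not pass. At 1w pw2 it was 3.00 ± 0.66 (7.98-fold, 95% interval 1.61 to 4.38), and it passed (adjusted p = 0.0357). With 2 surrogate variables in the fit (sva) the adjusted p was 0.261 at 1w pw2 and 0.175 across the time course, and with a correction for GC content 0.0628 and 0.0519, so both calls were lost. A block for the replicate number in the fit also lost both calls. The second wound and the first gave levels that did not differ beyond the spread, with a difference of 0.02 ± 0.61 on the log2 scale and an interval from -1.26 to 1.30. Against 8w pw1, 1w pw2 was 8.74-fold higher (log2 3.13 ± 0.66, adjusted p = 0.354), and the log2 differences of 2w pw1, 4w pw1 and 8w pw1 from 0w were 1.85 ± 0.63, 1.65 ± 0.62 and -0.13 ± 0.61, none past the threshold. The call across the time course was kept in 8 of 18 fits that each left out 1 library (adjusted p 0.0268 to 0.0969), and the call at 1w pw2 in 13 of 18. The latter was lost without 0w replicate 1, without 0w replicate 2 or without any 1 of the 3 libraries of 1w pw2 (log2 fold change 2.38 to 3.77, adjusted p up to 0.202). Without 0w replicate 1 the log2 fold change at 1w pw2 was 2.94 (adjusted p = 0.105) and the adjusted p across the time course was 0.0535.

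In Lgr5 GL cells Fabp5 had 44.2, 60.2 and 154 CPM at 0w, and reached 3127, 529.9 and 1269 CPM at 1w pw1. All 3 libraries of 1w pw1 were above those of 0w. At 2w pw1 the libraries had 2585, 262 and 287 CPM, so that 1 library was far above the other 2. The 4w pw1 libraries, at 319, 264 and 206 CPM, were still above 0w, and those of 8w pw1, at 64.0, 51.4 and 92.1 CPM, were not. After the second wound they had 157, 169.8 and 139 CPM. These 3 libraries were close to each other, above those of 8w pw1 and below every library of 1w pw1, and they overlapped 0w.

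Of the members, Fabp5 alone was called in Lgr5 GL libraries, both over the whole time course (adjusted p = 0.00845, with 1.13% of the 18025 genes tested called) and at 1w pw1, where it rose 19.1-fold (log2 4.26 ± 0.82, 95% interval 2.54 to 5.98, adjusted p = 0.0212, with 1.29% of genes called). At 2w pw1 the log2 difference from 0w was 3.60 ± 0.79 (adjusted p = 0.157), at 4w pw1 1.61 ± 0.74 and at 8w pw1 -0.31 ± 0.72. At 1w pw2 it was 0.86 ± 0.72, with an interval from -0.67 to 2.38 (adjusted p = 0.985). The levels at 1w pw2 were 10.6-fold below those of 1w pw1 (log2 -3.40 ± 0.78), with an adjusted p of 0.0656 that missed the threshold. Across the time course, Fabp5 passed in 18 of 18 fits that left out 1 library (adjusted p 0.00142 to 0.0248). At 1w pw1 it passed in 15 of 18, and not without 0w replicate a, 0w replicate b or 1w pw1 replicate 1 (log2 fold change 3.39 to 4.95, adjusted p up to 0.0882). With 2 surrogate variables the adjusted p at 1w pw1 was 0.163, and that call was lost. A block for the replicate number in the fit lost the call across the time course (adjusted p = 0.0580).

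**Figure D1:**
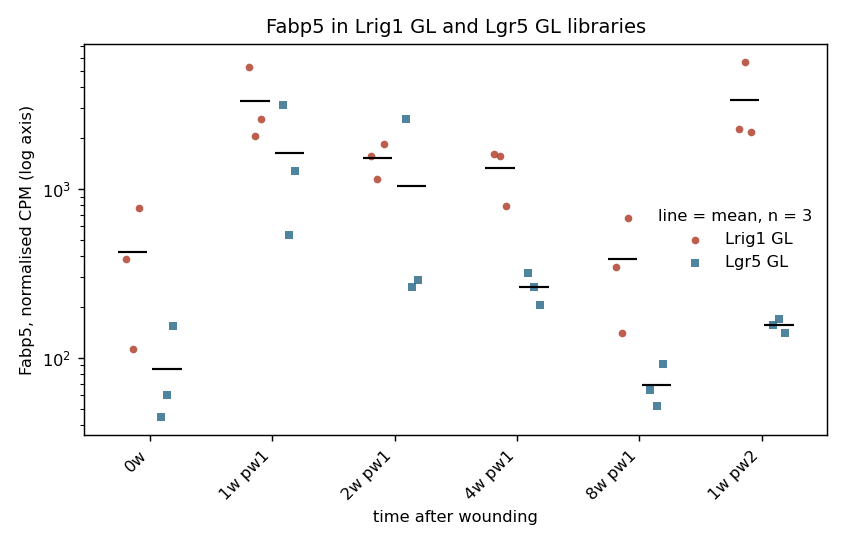
Fabp5 level in each library (normalised CPM, log axis) by time point in Lrig1 GL and Lgr5 GL cells, with 1 point per library and a line at the mean of the 3. In Lrig1 GL cells the libraries of 1w pw1 (2066 to 5279 CPM) and 1w pw2 (2174 to 5663 CPM) lay in the same range, while in Lgr5 GL cells those of 1w pw2 (139 to 169.8 CPM) lay below those of 1w pw1 (529.9 to 3127 CPM).

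The 2 populations were compared by an interaction term, which tests whether a change from 0w differs between them. For Fabp5 the difference of the changes (Lrig1 GL minus Lgr5 GL) was -1.32 ± 1.01 on the log2 scale at 1w pw1 (adjusted p = 0.563) and 0.23 ± 1.01 at 8w pw1. At 1w pw2 it was 2.18 ± 1.02 (95% interval 0.09 to 4.26), with an unadjusted p of 0.0415 and an adjusted p of 0.369. In level, every Lrig1 GL library had more Fabp5 than every Lgr5 GL library after the second wound (2174 to 5663 against 139 to 169.8 CPM). At 0w the means were 422 and 86.2 CPM, with overlap of the libraries. The difference between the changes did not pass correction over the 16153 genes tested. None of the 9 members was called for a difference between populations, where 0.0495%, 1.11% and 0.155% of genes were called for the changes to 1w pw1, to 8w pw1 and to 1w pw2. Without adjustment, 2, 1 and 3 members had a p under 0.05, and the likelihood ratio test of edgeR called 1 member, Pparg, at 1w pw1. The shares of all genes at these 2 criteria are not given here, so these counts are no result about the members. DESeq2 was not run for these contrasts. The 2 populations come from separate tables and separate mice, so that the population, the Cre line and the table cannot be told apart.

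The 5 genes that share sequence with Fabp5 were counted beside it. Their summed counts were 8.13% to 44.1% of those of Fabp5 in Lrig1 GL libraries (median 19.2%) and 28.4% to 55.6% in Lgr5 GL libraries (median 34.2%). In number they ran from 21 to 2479 counts and from 60 to 6230 counts per library. The counts do not show whether a read came from the copies or from Fabp5 itself. With the copies added to Fabp5, an alternative chosen after the data were seen, the log2 fold change was 2.88 ± 0.66 at 1w pw2 in Lrig1 GL cells (adjusted p = 0.0395) and 4.31 ± 0.84 at 1w pw1 in Lgr5 GL cells (adjusted p = 0.0231), so both calls were kept. Gm5182, the copy of Acaca, had 20.2% to 82.9% of the counts of Acaca in Lrig1 GL libraries and 0% to 69.7% in Lgr5 GL libraries, and the level of Acaca is uncertain to that extent.

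**Figure D2:**
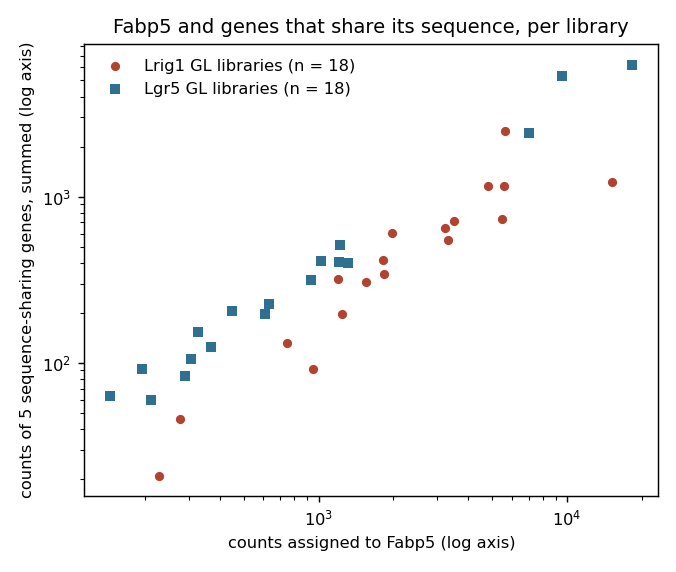
Summed counts of the 5 genes that share 50-base stretches with Fabp5 (vertical, log axis) against the counts of Fabp5 (horizontal, log axis), with 1 point per library and a colour and marker for each population. The 5 genes had 8.13% to 44.1% of Fabp5's counts in Lrig1 GL and 28.4% to 55.6% in Lgr5 GL libraries.

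Pparg was the other member that changed across the time course, and it moved the opposite way and in Lrig1 GL cells. It had 109, 36.1 and 17.3 CPM at 0w (212, 89 and 27 counts) and 3.80, 3.39 and 1.38 CPM at 1w pw1 (4, 3 and 3 counts). No library of 1w pw1 reached the lowest of 0w. At 2w pw1 the levels were 8.94, 4.41 and 14.5 CPM, at 4w pw1 1.49, 1.59 and 2.55 CPM (3, 2 and 5 counts). These groups too were below every 0w library. The 8w pw1 libraries, with 5.83, 24.4 and 13.4 CPM, overlapped 0w, and the 1w pw2 libraries, with 15.1, 6.73 and 0.658 CPM (32, 18 and 1 counts), did not.

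The test across the time course called Pparg in Lrig1 GL cells (adjusted p = 0.0468), and no single time point was called. The log2 differences from 0w were -4.27 ± 1.04 at 1w pw1 (adjusted p = 0.121), -2.52 ± 0.92 at 2w pw1 (adjusted p = 0.374), -4.79 ± 1.05 at 4w pw1 (adjusted p = 0.165), -1.90 ± 0.90 at 8w pw1 (adjusted p = 0.22) and -2.83 ± 0.94 at 1w pw2 (adjusted p = 0.127). At 1w pw1 and 4w pw1 most of the libraries held 3 counts or fewer, so the sizes of these 2 differences depend on a handful of reads. The call across the time course was kept in 3 of 18 fits that left out 1 library (without 0w replicate 3, 2w pw1 replicate c or 1w pw2 replicate 1; adjusted p 0.0357 to 0.146 over all 18). It rested in part on 0w replicate 1, without which the adjusted p was 0.146. The differences from 0w were then -3.25 at 1w pw1, -1.51 at 2w pw1, -3.78 at 4w pw1, -0.88 at 8w pw1 and -1.81 at 1w pw2 (adjusted p 0.347 to 0.643).

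Pparg was low in Lgr5 GL cells at every time point. It had 1.59, 2.70 and 4.48 CPM at 0w (7, 13 and 13 counts) and 6.85, 3.96 and 2.17 CPM at 1w pw1 (21, 7 and 12 counts). At 4w pw1 it had 7.78, 8.80 and 4.71 CPM (8, 21 and 7 counts), and at 1w pw2 10.9, 1.4996 and 3.01 CPM (84, 9 and 8 counts). No difference from 0w passed, and most of these levels rest on few reads. The difference between the populations in the change at 1w pw1 was -4.85 ± 1.26 on the log2 scale (95% interval -7.42 to -2.28, adjusted p = 0.0926), and at 1w pw2 it was -3.62 ± 1.19 (adjusted p = 0.194). Neither passed. After wounding, Pparg in Lrig1 GL cells ran from 0.658 to 24.4 CPM and overlapped the range of the 18 Lgr5 GL libraries, 1.41 to 10.9 CPM, while all 3 unwounded Lrig1 GL libraries were above that range. The share of Gm12415 lowers the Lgr5 GL values, so this order of the levels is uncertain.

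Of the desaturases, Scd1 is the main enzyme of sebaceous glands and Scd2 is the more widespread form. In Lrig1 GL cells Scd1 had 569.7, 153 and 286 CPM at 0w, 123, 98.4 and 209.6 CPM at 1w pw1 and 160.4, 59.2 and 168 CPM at 2w pw1. At 4w pw1 it had 118, 107 and 315 CPM, at 8w pw1 345, 394 and 383 CPM, and at 1w pw2 265, 413 and 422 CPM. The 3 libraries of 1w pw2 were above the 3 of 1w pw1, a log2 difference of 1.34 ± 0.51 (2.54-fold, unadjusted p = 0.0171, adjusted p = 0.461), and the wounded groups otherwise overlapped 0w. The differences from 0w were -1.22 ± 0.51 at 1w pw1 (adjusted p = 0.392) and -1.38 ± 0.51 at 2w pw1 (adjusted p = 0.375), and 0.12 ± 0.50 at 1w pw2. Without 0w replicate 1, its highest library, the first 2 of these were -0.61 (adjusted p = 0.753) and -0.76 (adjusted p = 0.608). Scd1 thus passed no test here.

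Scd2 in Lrig1 GL cells had 77.5, 209 and 290.1 CPM at 0w, 378, 249 and 153 CPM at 1w pw1 and 219, 483 and 369.6 CPM at 1w pw2. Its largest difference from 0w was 0.89 ± 0.50 on the log2 scale at 1w pw2 (95% interval -0.16 to 1.95, adjusted p = 0.348). Scd1 and Scd2 did not follow each other across the 18 Lrig1 GL libraries (Pearson's r = 0.14), a description over libraries that share their time points. In CPM, with no correction for transcript length, Scd2 was above Scd1 in 2 of the 3 Lrig1 GL libraries at 0w and in all 3 Lgr5 GL ones. Per kilobase of transcript, the order in Lrig1 GL replicate 3 of 0w was the reverse (Scd1 59.3, Scd2 53.2). In the Lgr5 GL libraries it was kept. Lgr5 GL cells had Scd1 at 48.3, 36.7 and 51.4 CPM and Scd2 at 134, 140.1 and 149.9 CPM at 0w. Scd2 stayed between 104 and 229 CPM in all 18 Lgr5 GL libraries, and its differences from 0w ran from -0.24 to 0.22 on the log2 scale. Scd1 there ranged more widely, from 9.62 to 97.2 CPM, with the highest group mean at 4w pw1 (79.2 ± 21.3 CPM against 45.5 ± 7.72 CPM at 0w, log2 0.80 ± 0.54, adjusted p = 0.641).

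Both enzymes that build the fatty acid chain had their highest group mean among Lrig1 GL cells at 0w. Fasn had 69.3, 110.0 and 136 CPM at 0w, 27.3, 40.9 and 31.8 CPM at 2w pw1 and 40.1, 26.3 and 51.5 CPM at 8w pw1, and in both of these groups every library was below every 0w library. The log2 differences were -1.66 ± 0.42 at 2w pw1 (3.15-fold lower, 95% interval -2.54 to -0.77, adjusted p = 0.18) and -1.42 ± 0.42 at 8w pw1 (2.67-fold lower, adjusted p = 0.0656). Neither passed correction over all genes, and no gene of the table was called at 2w pw1 (0%). Replicate 1 of 0w had the lowest Fasn of its group, and without it the difference at 8w pw1 was -1.64 (adjusted p = 0.0833). Fasn at 1w pw1 (119.6, 65.6 and 48.5 CPM), 4w pw1 (56.3, 64.4 and 73.4 CPM) and 1w pw2 (41.5, 50.1 and 71.0 CPM) overlapped 0w. Acaca had 71.9, 69.0 and 32.7 CPM at 0w and its lowest group mean at 4w pw1 (35.4, 29.4 and 17.8 CPM, log2 -1.07 ± 0.51, adjusted p = 0.596).

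Neither enzyme of chain synthesis passed a test in Lgr5 GL cells. Fasn had 59.0, 46.1 and 151 CPM at 0w and 64.7, 119 and 126 CPM at 1w pw2, and its differences from 0w lay between -0.63 ± 0.41 at 1w pw1 and 0.28 ± 0.40 at 1w pw2. The change of Fasn at 8w pw1 was lower in Lrig1 GL than in Lgr5 GL cells by a log2 difference of -1.38 ± 0.57 (95% interval -2.54 to -0.22, unadjusted p = 0.0216, adjusted p = 0.199), which did not pass. Acaca was lowest at 8w pw1 (7.95, 36.8 and 27.9 CPM), and at 1w pw2 (55.0, 73.0 and 45.2 CPM) it was above every library of 8w pw1. That difference was 1.24 ± 0.49 on the log2 scale (2.36-fold, unadjusted p = 0.0217, adjusted p = 1), and it includes the reads that Acaca shares with Gm5182.

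Mgst1 in Lrig1 GL cells was set apart at 0w by 1 library. It had 1495, 281 and 423 CPM at 0w and stayed between 236 and 434 CPM in all other 15 libraries. The differences from 0w were -1.36 ± 0.43 at 1w pw1 (adjusted p = 0.235) and -1.49 ± 0.43 at 8w pw1 (2.8-fold lower, adjusted p = 0.064). Without 0w replicate 1 they were -0.31 ± 0.28 and -0.43 ± 0.28 (adjusted p = 0.412 at 8w pw1). Mgst1 was lower in Lgr5 GL cells, at 59.0, 30.9 and 61.3 CPM at 0w, with 85.1, 58.9 and 156 CPM at 1w pw1 and 114, 100.2 and 114 CPM at 4w pw1. The 4w pw1 libraries were all above 0w, by 1.12 ± 0.59 on the log2 scale (adjusted p = 0.524). The difference between the populations at 1w pw1 was -2.36 ± 0.75 (adjusted p = 0.149), and it too includes 0w replicate 1 of Lrig1 GL cells.

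The droplet protein gene Plin2 showed the same library at the top in Lrig1 GL cells. It had 292, 65.8 and 116 CPM at 0w, 37.0, 44.1 and 156 CPM at 1w pw1 and 14.4, 68.4 and 64.2 CPM at 4w pw1. Its largest difference, -1.69 ± 0.68 on the log2 scale at 4w pw1 (adjusted p = 0.536), was -0.89 without 0w replicate 1. Plin2 in Lgr5 GL cells had 121, 107 and 89.6 CPM at 0w, 147, 97.4 and 217 CPM at 1w pw1, 75.5, 44.6 and 90.2 CPM at 8w pw1 and 167, 131 and 64.0 CPM at 1w pw2. No group stood apart from 0w there. Acsl1 in Lrig1 GL cells had 16.4, 86.9 and 78.1 CPM at 0w and between 42.8 and 109.7 CPM in all other libraries, so that 0w replicate 1 was its lowest library. Acsl1 was scarce in Lgr5 GL cells at 0w, with 12.03, 7.68 and 1.03 CPM, and had 47.0, 9.66 and 36.8 CPM at 2w pw1 (log2 2.15 ± 0.83, adjusted p = 0.442) and 16.9, 16.7 and 16.6 CPM at 1w pw2. The 1w pw2 libraries were all above those of 0w, by 1.25 ± 0.82 on the log2 scale (adjusted p = 0.91).

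**Figure D3:**
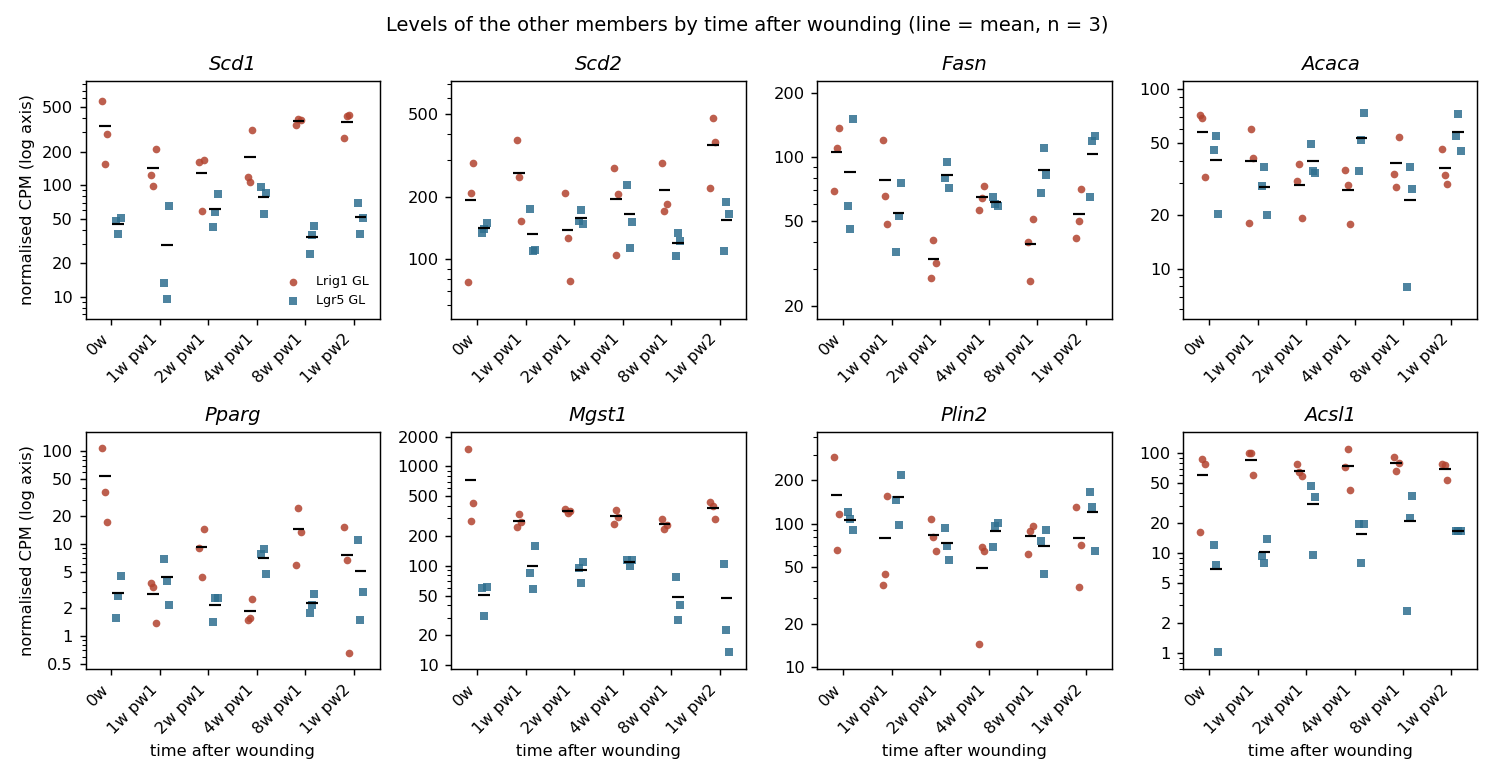
Levels of the members other than Fabp5 in each library (normalised CPM, log axis) by time point, with 1 panel per gene, 1 point per library, a colour and marker for each population and a line at the mean of the 3. Pparg in Lrig1 GL cells goes from 17.3 to 109 CPM at 0w to 1.38 to 3.80 CPM at 1w pw1, and Mgst1 at 0w shows 1 Lrig1 GL library at 1495 CPM above all others.

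The unwounded Lrig1 GL library that stood apart was set beside the markers of sebocytes. Replicate 1 of 0w had the highest of 18 libraries for Pparg, Scd1, Mgst1, Plin2 and Acaca, and the lowest for Scd2 and Acsl1. Of the list of 22 sebocyte genes, 17 were in the Lrig1 GL table, and this library was the highest for 8 of them: the 4 members Pparg, Scd1, Mgst1 and Plin2, and Scd3, Elovl3, Far2 and Mc5r, which encode a further desaturase, an elongase, a fatty acyl-CoA reductase and the melanocortin receptor of sebocytes. The share of all genes with their highest level in this library was not counted, so these counts do not set the members or the list apart. The rest of the list did not peak there. Soat1 had 10.8 CPM in it, against 62.9 and 76.9 CPM in the other 0w libraries. Fasn was the lowest of 0w there (69.3 CPM), and Cidea (14.4 CPM) and Dgat2l6 (1.03 CPM) lay between the other 0w libraries. The summed level of the 12 genes of the list that are not members was 1316 CPM in this library, 714 and 624 CPM in the other 2 of 0w, and 239 to 623 CPM in the 15 libraries of other time points. In Lgr5 GL libraries it was 142 to 384 CPM. The 0w Lrig1 GL libraries were thus the 3 with the highest sebocyte sums, and the part that this plays in the lower member levels after wounding was not tested. Over the 15 tested genes of the list, 5 of them members, the median log2 difference was -1.22, -1.66, -1.02, -1.42 and -1.12 from 1w pw1 to 1w pw2, beside -0.05, -0.01, -0.03, -0.01 and -0.06 over all genes. Over the 10 that are not members it was -1.06, -2.02, -0.94, -1.20 and -1.60. Without 0w replicate 1, where 11 such genes passed the filter, it was -0.49, -0.97, -0.76, -1.32 and -0.85. Both alternatives were chosen after the data were seen, and these medians are descriptions with no test. Some other lists of lipid genes, described below, had negative medians in Lrig1 GL cells too. Fatty acid oxidation, with no member in it, had -0.64, -0.50, -0.25, -0.73 and -0.81 at the same time points. The medians of fatty acid synthesis ran from -0.95 to -0.51, and those of cholesterol synthesis from -0.26 to 0.27. Awat1, Plin5, Fabp4 and Cyp2g1 of the list had no row in either table.

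**Figure D4:**
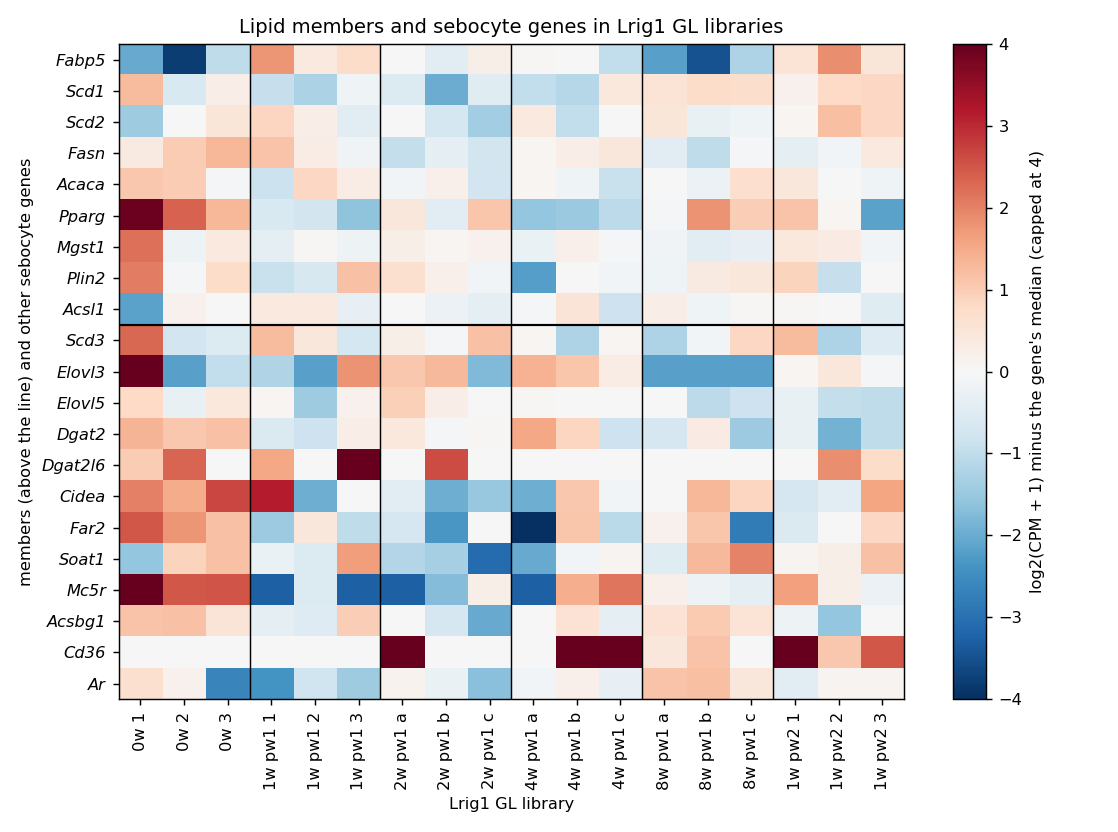
Heat map of the 9 members (above the line) and 12 other sebocyte genes (below it) in the 18 Lrig1 GL libraries, ordered by time point. Colour is log2(CPM + 1) minus the median of the gene over the libraries, red for higher and blue for lower, and the first column, 0w replicate 1, is red for Pparg, Scd1, Mgst1 and Plin2 and blue for Acsl1.

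Over the 9 members together, the median log2 difference from 0w in Lrig1 GL cells was -0.54 at 1w pw1, -0.98 at 2w pw1, -0.90 at 4w pw1, -0.57 at 8w pw1 and -0.66 at 1w pw2. Without 0w replicate 1, an alternative chosen after the data were seen, these medians were -0.31, -0.76, -0.35, -0.21 and -0.20. For Lgr5 GL cells it was 0.54, 0.16, 0.80, -0.31 and 0.28, against medians over all genes between -0.08 and 0.03. One member was called at 1w pw2 in Lrig1 GL cells, where 1.23% of genes were called. None was called there at 1w pw1 (0.217% of genes called), 4w pw1 (0.0419%), 8w pw1 (2.82%), for 1w pw2 against 1w pw1 (0%) or against 8w pw1 (0.00699%). At an unadjusted p under 0.05 the Lrig1 GL members numbered 4 at 1w pw1, 5 at 2w pw1, 4 at 4w pw1, 2 at 8w pw1 and 4 at 1w pw2, and DESeq2 called 2, 1, 1, 2 and 2. For 1w pw2 against 1w pw1 and against 8w pw1 they numbered 1 and 1, with 0 and 1 called by DESeq2. In Lgr5 GL cells no member was called at 2w pw1 (0%), 4w pw1 (0.155%), 8w pw1 (0%), 1w pw2 (0%), 1w pw2 against 1w pw1 (0.266%) or 1w pw2 against 8w pw1 (0%). The members at an unadjusted p under 0.05 were 2, 1, 0, 0, 2 and 1 in these comparisons, and DESeq2 called 1, 0, 0, 0, 1 and 0, each time Fabp5. A count of 0 among 9 members is close to these shares and says nothing particular about them. The shares of all genes at an unadjusted p under 0.05 or called by DESeq2 are not given here. The member counts at these 2 criteria, in either population, are therefore no result about the members.

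**Figure D5:**
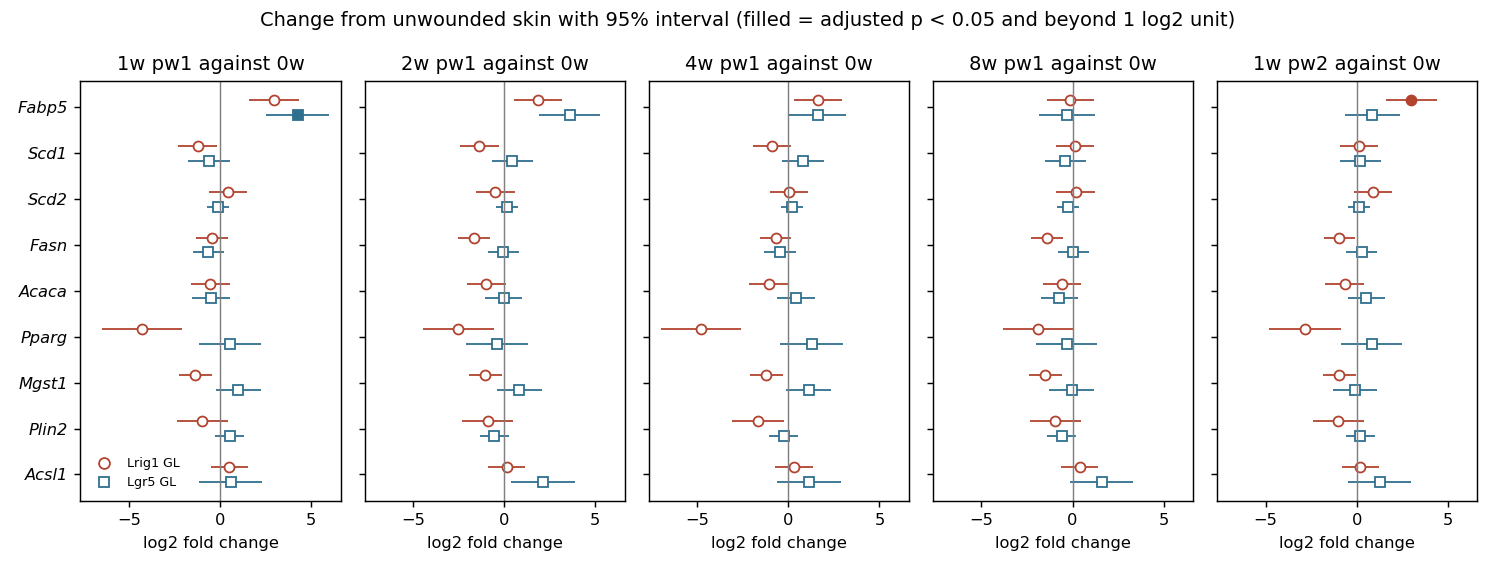
Log2 fold change from 0w of each member at the 5 later time points (1 panel each) with its 95% interval, in Lrig1 GL (circles) and Lgr5 GL cells (squares). Symbols are filled where the change was called, which holds for Fabp5 at 1w pw1 in Lgr5 GL cells (4.26) and at 1w pw2 in Lrig1 GL cells (3.00).

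To compare levels between genes, CPM was divided by the length of the longest coding transcript in kilobases. On this scale Mgst1 (628 ± 568) and Fabp5 (428 ± 335) led in Lrig1 GL cells at 0w, followed by Plin2 (83.6), Scd1 (69.6), Scd2 (35.2), Pparg (25.4), Acsl1 (15.5), Fasn (10.5) and Acaca (6.08), and every neighbour in this order overlapped the next. At 1w pw1 Fabp5 stood alone at the top with 3358 ± 1746 CPM per kilobase, apart from Mgst1 (244), and Pparg was the lowest (1.35). In Lgr5 GL cells at 0w the order was Fabp5 (87.3 ± 60.1), Plin2 (56.2), Mgst1 (43.2), Scd2 (25.9), Scd1 (9.41), Fasn (8.49), Acaca (4.24), Acsl1 (1.77) and Pparg (1.38), with a gap between Scd2 and Scd1. Fabp5 stood apart there too at 1w pw1 (1664 ± 1356). Scd1 and Scd2 overlapped in Lrig1 GL cells at 0w, and at 1w pw1 the mean of Scd2 (47.7) was above that of Scd1 (29.8). No test was made between genes.

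The wider pathways around the members were described from lists of genes with known roles, by the number called across the time course or at any time point against 0w. Over all genes, 3.89% were called in this way for Lrig1 GL and 1.92% for Lgr5 GL cells. With lists of this size 1 call in a list is no result about the list. In fatty acid synthesis 1 of 14 tested genes was called in Lrig1 GL cells and 0 of 16 in Lgr5 GL cells. The gene was Tecr, the reductase of the last step of very-long-chain fatty acid elongation. It had 797, 517 and 678 CPM at 0w, 169, 172 and 195 CPM at 8w pw1 and 286, 150 and 153 CPM at 1w pw2. Tecr fell by 1.89 ± 0.30 on the log2 scale at 8w pw1 (adjusted p = 0.0125) and by 1.76 at 1w pw2 (adjusted p = 0.0164), with no overlap of these groups and 0w. In the list of lipid droplet and lipolysis genes 1 of 14 was called in Lrig1 GL cells, Lpin1, a phosphatidate phosphatase on the way to triglyceride (0w 80.6, 29.6 and 69.2 CPM, other libraries 6.70 to 18.9 CPM, adjusted p across the time course 0.0451). Its log2 differences from 0w were between -1.79 and -2.62, and none passed at a single time point, although every later library was below every 0w library.

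Among 23 tested genes of barrier lipids in Lrig1 GL cells, 1 was called. Cyp4f39, the hydroxylase of ultra-long-chain fatty acids for barrier ceramides, had 0 counts in every 0w library and 34.2, 12.4 and 21.2 CPM at 1w pw1. Set against 3 counts over the summed 0w libraries, it was at least 45.02-fold higher at 1w pw1, 38.3-fold at 4w pw1, 9.48-fold at 8w pw1 and 7.47-fold at 1w pw2, and it was called at these 4 time points (adjusted p across the time course 0.0190). At 2w pw1 it was at least 32.3-fold higher and just missed the threshold (adjusted p = 0.0508). In the list of PPAR and RXR factors 1 of 8 was called in Lrig1 GL cells (Pparg) and 1 of 9 in Lgr5 GL cells, Angptl4, a secreted inhibitor of lipoprotein lipase and a known target of PPARs. Angptl4 had 0 counts in every 0w Lgr5 GL library and 13.0, 16.98 and 12.7 CPM at 1w pw1, at least 57.5-fold higher against the same floor (adjusted p = 0.0197). At 4w pw1 it had 37.9, 5.45 and 27.6 CPM, at least 95.6-fold higher (adjusted p = 0.0282). In fatty acid binding, uptake and activation, Fabp5 was the 1 gene of 13 called in each population, and Fabp1, Fabp2, Fabp3, Fabp4, Fabp7 and Fabp9 had no row in either table.

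No gene was called in the other lists of lipid genes. In Lrig1 GL cells these were cholesterol synthesis and its SREBP regulators (0 of 25, smallest adjusted p across the time course 0.142, Hmgcs1), fatty acid oxidation (0 of 18, 0.206, Etfa) and the membrane enzymes related to Mgst1 (0 of 4, 0.0689, Mgst3). In Lgr5 GL cells they were fatty acid synthesis (0 of 16, 0.176, Hsd17b12), sebocyte genes (0 of 17), cholesterol synthesis (0 of 26, 0.238, Fdps), lipid droplets (0 of 17, 0.124, Plin3), oxidation (0 of 18, 0.190, Eci1), barrier lipids (0 of 21, 0.187, Degs1) and the enzymes related to Mgst1 (0 of 4, 0.0578, Mgst3).

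Markers of other cells were summed beside the members. The wound keratins Krt6a, Krt6b, Krt16 and Krt17 summed to 2712 to 4970 CPM at 0w, 4500 to 10811 CPM at 1w pw1 and 3311 to 5531 CPM at 1w pw2 in Lrig1 GL cells, where 3 of the 4 were called across the time course. They summed in Lgr5 GL cells to 2848 to 5056 CPM at 0w and 6605 to 11075 CPM at 1w pw1, and 3244 to 4198 CPM at 1w pw2. Both summed ranges after wounding in Lrig1 GL cells overlapped that of 0w, also at 1w pw2, where every Fabp5 value was above 0w. The median of the log2 differences of the 4 keratins there was 2.86 at 1w pw1 and 1.80 at 1w pw2, and 1 of the 4 was called at each of these time points. Krt6b was called at both (log2 4.07, adjusted p = 0.0157, and log2 3.29, adjusted p = 0.0260, edgeR). In Lgr5 GL cells Krt6b was called at 1w pw1 (log2 2.57, adjusted p = 0.0454). Genes of basal keratinocytes summed to 14753 to 17357 CPM at 0w, 22431 to 26397 CPM at 1w pw1 and 16248 to 17520 CPM at 1w pw2 in Lrig1 GL cells, and to 10645 to 14617, 19226 to 23249 and 9642 to 10130 CPM in Lgr5 GL cells. In both populations this sum was thus higher at 1w pw1 in every library, as Fabp5 was. Krt14 of this list rose in Lgr5 GL cells at 1w pw1 (log2 1.53, adjusted p = 0.0197), and Col17a1, also among the bulge genes, fell at 4w pw1 (log2 -1.71, adjusted p = 0.0438). Markers of the bulge and lower HF moved the other way, from 8207 to 13563 CPM at 0w to 2166 to 4207 CPM at 1w pw1 in Lrig1 GL cells, and Krt15 and Sox9 of this list were called as lower in both populations. For Krt15 at 1w pw1 the log2 difference was -3.28 among Lrig1 GL (adjusted p = 0.0316) and -1.16 among Lgr5 GL cells (adjusted p = 0.0498). Of the genes of IFE differentiation, Lgals7 fell in Lrig1 GL cells at 8w pw1 (log2 -1.28, adjusted p = 0.0465), and Sbsn was called across the time course in Lgr5 GL cells (adjusted p = 0.00826). The defining adipocyte genes Adipoq, Lep, Retn, Plin1, Fabp4, Cfd and Cidec had no row in either table. The 2 genes of that list with a row summed to 85.2 CPM in Lrig1 GL 0w replicate 1, the highest of the 18 libraries. They summed to 7.72 and 25.6 CPM in the other 0w libraries. Fibroblast genes summed to 7.50 to 116 CPM in Lrig1 GL and 129 to 612 CPM in Lgr5 GL libraries. Immune genes, of which 4 of 10 had a row in each table, summed to 0 to 21.0 and 0 to 35.0 CPM. The part of any of these cell types in the levels of the members was not tested.

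The genes whose log2 CPM followed Fabp5 most closely over the 18 Lrig1 GL libraries were Fabp5l2 (Pearson's r = 0.94), Ldha (0.89), Ly6a (0.89), Sprr1b (0.88) and Sprr2h (0.87), out of 10508 genes compared. Fabp5l2 is one of the genes that share sequence with Fabp5. Ldha encodes a subunit of lactate dehydrogenase, and Sprr1b and Sprr2h encode proteins of the cornified envelope. In the 18 Lgr5 GL libraries they were Fabp5l2 (0.98), Ctsc (0.92), Eno1 (0.85), Trbc2 (0.84) and Uchl3 (0.84), out of 11938. Ctsc encodes the protease cathepsin C, and Eno1 the glycolytic enzyme enolase. Ctsc went from a mean of 15.6 CPM at 0w to 313 CPM at 1w pw1 and 40.0 CPM at 1w pw2, and Sprr1b in Lrig1 GL cells from 59.7 to 467 and 359 CPM at the same time points. Among the other members, Fabp5 was most unlike Pparg in Lrig1 GL cells (r = -0.59) and nearest to Scd2 (0.31), and in Lgr5 GL cells it ranged from -0.28 (Fasn) to 0.50 (Mgst1). These correlations are descriptions over libraries that share time points.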

How the data were processed

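Mini-bulk RNA-seq of sorted tdTomato+ tail epidermal cells was measured in 36 libraries, 18 for each population. The authors trimmed the reads with Trim Galore 0.5.0, aligned them with HISAT2 to GRCm38 (mm10), and deposited unnormalized read counts per gene, made with featureCounts over exons of GENCODE M20 grouped by gene name. Strand and multimapping settings are not given in the sources used here. For 15 libraries the replicate number in the counts is one that the labels also give. The other 21 match a group only and were called replicates a, b and c. The study's legends give 3 mice for these data, and the labels tie no library to a mouse.

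The tests used edgeR 4.0.16 (R 4.3.3). Each population was fitted on all its groups, with filterByExpr by group (14306 of 20181 and 18025 of 22587 genes kept), TMM factors (0.821 to 1.16 and 0.668 to 1.23), a prior count of 0.125, quasi-likelihood F-tests and Benjamini-Hochberg adjustment over all genes tested. A gene was called at an adjusted p under 0.05 and, against 0w, a log2 fold change above 1 in size. The contrast of 1w pw2 with 1w pw1 or 8w pw1 and the interaction of population and time, fitted on both tables together, used the adjusted p alone. The test across the time course took the 5 differences from 0w together. The 3 counts against 0 and the per-million levels cover counting error only. With 3 libraries a group, an exact two-sided permutation test of 1 gene cannot go below 0.1. The fitting code was tested on simulated data with changes at 1w pw1 against 0w. In each population it called 0 of 67 genes changed 2-fold. It called 25 (Lrig1 GL) and 26 (Lgr5 GL) of 67 changed 4-fold, and 48 and 50 of 66 changed 8-fold. The lack of a call is thus no sign that a gene did not change. DESeq2 1.42.0, the likelihood ratio test of edgeR, surrogate variables from sva 3.50.0, a replicate block, a GC correction, other filters and scalings, and leaving out each library were alternatives.

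Positions and shared 50-base stretches came from GRCm38 and GENCODE M21, which holds 20055 of 20181 and 22436 of 22587 gene names. Promoters came from RefSeq on GRCm38.p6. The members and gene lists were chosen with earlier results of these data known. Named were the 9 members, in each list of lipid genes the genes called (at most 4 with the smallest adjusted p, or the 1 with the smallest if none was called), and the 5 genes with the highest Pearson's r with Fabp5 among genes with a mean of at least 10 counts, without unnamed Gm and Rik genes.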

Additional observations from a re-analysis of the deposited data

Results flagged for a closer look

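The differences of Pparg from 0w at 4w pw1 had opposite signs in the populations, and neither passed. In Lrig1 GL cells all 3 libraries (1.49, 1.59 and 2.55 CPM) were below every 0w library (17.3 to 109 CPM), a log2 difference of -4.79 ± 1.05 that did not pass (adjusted p = 0.165, edgeR). In Lgr5 GL cells all 3 (7.78, 8.80 and 4.71 CPM) were above every 0w library (1.59 to 4.48 CPM), by 1.28 ± 0.82 (adjusted p = 0.615). The difference between the populations at this time point was not among the planned comparisons, and its value is not given here. The libraries of 4w pw1 held 2 to 5 counts of Pparg in Lrig1 GL and 7 to 21 counts in Lgr5 GL cells.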

How the results depend on the processing

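No member's change reversed its direction where it was called. In Lrig1 GL cells the number of members called across the time course, 2, became 1 without a filter on low counts (Fabp5), 5 with DESeq2 and 5 with the likelihood ratio test (Fabp5, Pparg, Mgst1, Fasn and Scd1), and 0 with 2 surrogate variables, with the replicate block and with the GC correction. It was 0 to 2 when 1 library was left out. The call of Fabp5 at 1w pw2 was lost with the surrogate variables (adjusted p = 0.261), the replicate block (0.0707) and the GC correction (0.0628), giving 0 members, and DESeq2 called 2. DESeq2 and the likelihood ratio test each called 2 members at 1w pw1, 1 at 2w pw1, 1 at 4w pw1, 2 at 8w pw1 and 1 for 1w pw2 against 8w pw1. Leaving out 1 library gave 0 to 1 at 1w pw1, at 8w pw1 and also at 1w pw2. In Lgr5 GL cells the call of Fabp5 across the time course was lost with the replicate block (0 members, adjusted p = 0.0580), and that at 1w pw1 with the surrogate variables (0 members, adjusted p = 0.163). Leaving out 1 library gave 0 to 2 members at 1w pw1 and 0 to 1 for 1w pw2 against 1w pw1, and DESeq2 and the likelihood ratio test each called 1 at 2w pw1 and 1 for 1w pw2 against 1w pw1. The likelihood ratio test called 1 difference between populations at 1w pw1. The share of all genes called is given for the main fit only. A larger or smaller count of members under another setting is therefore no result about the members. The cause of these changes was not tested. Across genes, libraries with the same number had deviations from their group means with r from -0.106 to 0.1249 in Lrig1 GL and -0.136 to 0.157 in Lgr5 GL cells. Such values over all genes cannot exclude a pairing that acts on some genes. A call lost under the block is thus given as lost. With 3 libraries a group and Pparg at 2 to 5 counts in the Lrig1 GL libraries of 1w pw1 and 4w pw1, depth limits its fold changes.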
